A study of Mus musculus with 24 samples.

Results

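Long-term haematopoietic stem cells (LT-HSCs) carrying Jak2V617F were compared with wild-type (WT) LT-HSCs from the same animals after treatment with pegylated interferon alpha (pegIFN). The comparison rests on 12 libraries of polyadenylated RNA, 6 per genotype, of 24 in the series, and on the 15215 autosomal genes tested of 38215 genes in the table. Jak2V617F cells came from donors labelled C57Bl/6N Jak2V617F/+ Tg(E2A-cre) and were sorted as CD45.1-/CD45.2+, WT cells from congenic donors labelled C57Bl/6N Ptprca and were sorted as CD45.1+/CD45.2-. Marrow of both donors had been mixed in equal parts and transplanted into lethally irradiated recipients, so each recipient mouse gave a Jak2V617F and a WT library, numbered here by its replicate. PegIFN mice had received 600 ng subcutaneously each week, 5 doses over 4 weeks, and vehicle mice the carrier solution (6 libraries per genotype, from 6 other mice), and cells were taken 48 h after the last dose. All 24 libraries therefore come from transplanted cells in irradiated hosts, and the mutation is heterozygous and made by the transgene labelled Tg(E2A-cre), carried by the Jak2V617F donors. Ages and the number of donor animals are not given in the sources used here. Where several recipients share donors, the p-values measure the spread between recipients only.

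Jak2 is the tyrosine kinase through which the erythropoietin receptor and several other cytokine receptors signal, mainly by phosphorylating STAT5. The V617F substitution keeps the kinase active without cytokine and is the most frequent driver of the myeloproliferative neoplasms, in which a mutant stem cell overproduces red cells, platelets or granulocytes. Type I interferon signals through Jak1 and Tyk2 to STAT proteins, induces a large antiviral programme and draws quiescent stem cells into cycle, and pegIFN is used to treat these neoplasms. p53 is a transcription factor that answers DNA damage and other stress by inducing genes of cell cycle arrest and of apoptosis, and the Bcl-2 family decides whether mitochondria release cytochrome c.

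Totals of expected counts ran from 28844818 to 34252584 in the Jak2V617F pegIFN libraries and from 30220482 to 39740656 in the WT pegIFN libraries. Antigens of the sort were read at the RNA level: Slamf1, which encodes CD150, was at 29.9 to 46 CPM (median 36.3) in Jak2V617F cells, against 28.9 to 43.5 CPM (median 35.9) in WT cells, Cd48 at 24.2 to 41 CPM (median 33.4) in Jak2V617F cells, against 18.5 to 34.8 CPM (median 25.9) in WT cells, and Ly6a, which encodes Sca-1, at 151 to 357 CPM (median 258) in Jak2V617F cells, against 144 to 281 CPM (median 235) in WT cells. Of 11 antigens of the sort that were tested, 5 were called (45.5%, against 24.6% of all autosomal genes), among them Kit, lower at -0.61, and Itgam, higher at 1.23. Slamf1, Cd48 and Ly6a were not: the genotypes overlapped for all 3, and their adjusted p-values were 0.603, 0.0972 and 0.119. Cd3e and Cd5 were too low to be tested. The donors also differed in sex-linked RNA. Xist was at 40.8 to 653.9 CPM in Jak2V617F pegIFN libraries, against 1801 to 2630 CPM in WT pegIFN libraries, and 4 Y-linked genes summed to 149.3 to 216.2 CPM in Jak2V617F and 2.166 to 22.66 CPM in WT pegIFN libraries. The Jak2V617F library of mouse 1 held the 653.9 CPM and stood apart from the other 5, the highest of which was at 110.1 CPM. Among vehicle libraries, the WT library of mouse 4 stood apart, with Xist at 599.8 CPM and the Y-linked sum at 249.6 CPM. In the other WT vehicle libraries the Y-linked sum was 20.18 to 75.66 CPM, mostly above that of the WT pegIFN libraries. Jak2V617F vehicle libraries were at 189.9 to 242.7 CPM. The part of this RNA in the vehicle and interaction results was not tested. Donor sex, the Ptprc allele and Jak2V617F cannot be told apart in this design. Only autosomal genes are described below, apart from 13 genes of the mitochondrial genome.

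Under pegIFN, 3749 of 15215 autosomal genes (24.6%) were called between the genotypes, meaning an adjusted p under 0.05 in edgeR's quasi-likelihood test with the mouse as a block and Benjamini-Hochberg adjustment over all 15879 genes tested. In Jak2V617F cells 2010 genes (13.2%) were higher and 1739 (11.4%) lower. The balance turned under some settings: it was 1790 higher and 1908 lower with RLE factors, 1895 and 1991 by DESeq2, 1514 and 1681 with no filter, and 1148 and 1251 without mouse 1. Most differences were small. Values are CPM (read counts scaled to library size with TMM factors) and are compared within a gene only, and values with ± are log2 fold changes of Jak2V617F over WT cells with the SE of the fit. The median absolute log2 fold change of the called genes was 0.26, and 318 of them passed 1, 204 higher and 114 lower. The direction was the same in 6 of 6 mice for 2675 of the 3749 genes. In 501 of the 3749 the 6 Jak2V617F values lay wholly above or below the 6 WT values, and in the rest the groups overlapped. This was counted among called genes only, so no share over all genes stands beside it. A fit that ignored the mouse called 1295 genes, 622 higher and 673 lower, and leaving out mouse 1 or mouse 4 left 2399 or 2479.

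In vehicle mice, 4777 genes (31.4%) were called, 2689 higher (17.7%) and 2088 lower (13.7%) in Jak2V617F cells, a split that turned to 2218 higher and 2630 lower with upper-quartile scaling. The pegIFN and vehicle comparisons share no library. They called 2066 genes in common, 2026 of them in the same direction and 40 in opposite directions. The 2026 are 54% of the pegIFN calls and 42.4% of the vehicle calls. Whether the genotype difference itself depended on treatment was tested as an interaction, the log2 fold change under pegIFN minus that under vehicle. It was called for 514 genes (3.38%), more positive under pegIFN for 195 (1.28%) and more negative for 319 (2.1%). With upper-quartile scaling the split was 242 to 230, and leaving out 1 mouse at a time left 199 to 923 calls, the lowest without pegIFN mouse 4 and the highest without pegIFN mouse 6. Without vehicle mouse 4, 3796 genes were called under vehicle and 245 for the interaction, and without pegIFN mouse 1 the interaction was called for 273. In the unpaired fit, no gene was called for the interaction by edgeR, with 1285 at an unadjusted p under 0.05, so each interaction named below rests on the pairing of cells within a mouse, while limma-voom, with a random effect per mouse, called 271 and DESeq2 1009. Of the 3749 genes called under pegIFN, 262 were also called for the interaction. Trp53inp1, which acts downstream of p53, was among the 40 genes with opposite calls, with 0.31 under pegIFN and -0.49 under vehicle, as was Adamts3, a procollagen-processing protease, with -0.42 and 0.50.

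**Figure D1:**
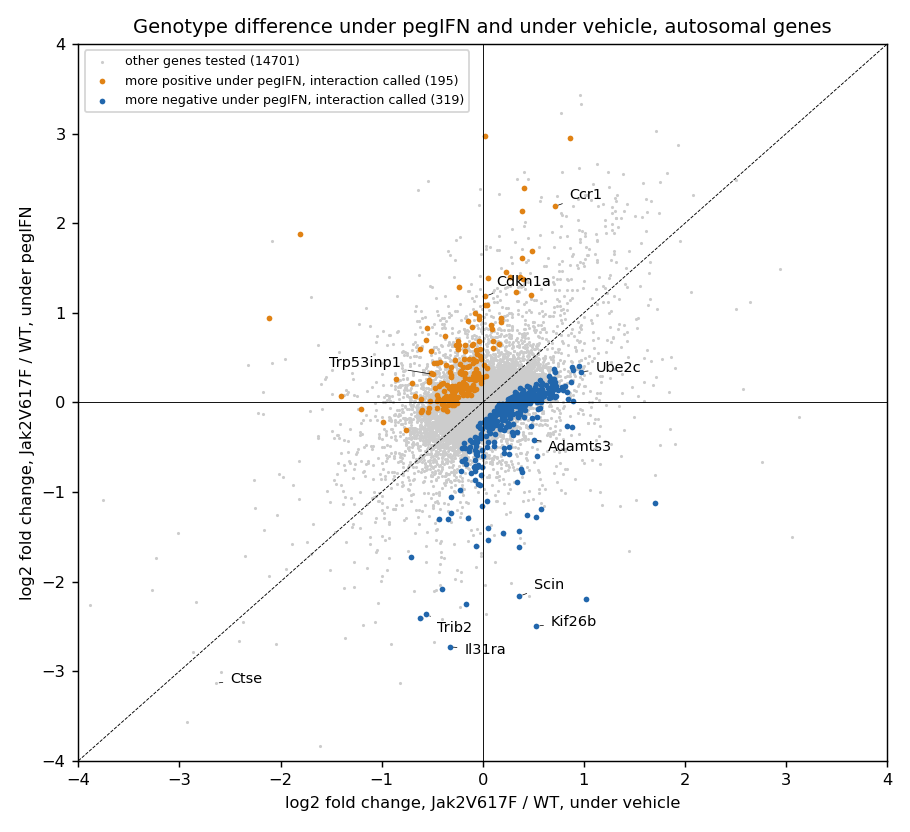
Log2 fold change of Jak2V617F over WT cells under pegIFN (vertical) against the same under vehicle (horizontal) for autosomal genes, with the 195 and 319 genes called for the interaction in colour and the line of equality dashed. 11 genes lie outside the axes. Cdkn1a sits near 0 under vehicle and at 1.18 under pegIFN, and Il31ra, Scin and Kif26b sit at -0.33, 0.36 and 0.53 under vehicle and below -2 under pegIFN.

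The gene with the smallest p under pegIFN was Cdkn1a (chromosome 17, 29090979 to 29100722, GRCm38), which encodes p21, the cyclin-dependent kinase inhibitor that p53 induces to arrest the cell cycle. In mice 1 to 6 Cdkn1a was at 21.6, 30.1, 17.9, 26.9, 50.6 and 29.9 CPM in Jak2V617F cells, against 8.85, 13.5, 9.96, 11.9, 18.1 and 13.6 CPM in WT cells. Each Jak2V617F value was above that of the WT cells of the same mouse, and the groups overlapped by a narrow margin. The log2 fold change was 1.18 ± 0.08 (adjusted p = 3.51e-07). Under vehicle Cdkn1a was at 4.64 to 18.2 CPM (median 10.4) in Jak2V617F cells and 5.09 to 17.4 CPM (median 10.9) in WT cells, with a log2 fold change of 0.02 ± 0.08 (adjusted p = 0.863), and the interaction was 1.16 ± 0.12 (adjusted p = 8.80e-05).

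Of 21 p53 target genes tested, 13 were higher and 1 was lower in Jak2V617F cells under pegIFN, where 13.2% and 11.4% of all autosomal genes were, against 3 higher and 6 lower under vehicle, and 7 were called for the interaction, all more positive under pegIFN (6 without vehicle mouse 4 and 6 without pegIFN mouse 1). The median log2 fold change of the list was 0.36 under pegIFN, against -0.06 under vehicle and 0.01 over all autosomal genes under pegIFN. Within the 6 pegIFN mice the list's median ratio ran from 0.23 to 0.45, above 0 in each. Btg2, an antiproliferative gene, was at 23.5 to 86.1 CPM (median 52.2) in Jak2V617F cells, against 13.2 to 66.7 CPM (median 23.9) in WT cells (log2 fold change 0.94 ± 0.11, adjusted p = 1.18e-04), higher within each mouse although the groups overlapped widely. Ccng1, which encodes cyclin G1, was at 108 to 147 CPM (median 124) in Jak2V617F cells, against 82.7 to 119 CPM (median 94.4) in WT cells (log2 fold change 0.38 ± 0.05, adjusted p = 7.99e-05), and Sesn2, which restrains mTORC1 under stress, at 23.9 to 35.5 CPM (median 25.9) in Jak2V617F cells, against 16.9 to 23.8 CPM (median 20.2) in WT cells (log2 fold change 0.40 ± 0.08, adjusted p = 0.00144). The groups overlapped for Ccng1 and did not for Sesn2. Of the apoptotic targets, Pmaip1, which encodes the BH3-only protein Noxa, was higher by 1.01 ± 0.14 (3.93 CPM in Jak2V617F cells and 2.25 CPM in WT cells at the median) and the death receptor Fas by 0.81 ± 0.21. Bbc3, which encodes Puma, was not called (0.18 ± 0.10, adjusted p = 0.185). Also called higher were Perp (0.94), Phlda3 (0.71), Plk2 (0.69), Zmat3 (0.46) and Gtse1 (0.36) and Mdm2, the ubiquitin ligase that limits p53 (0.16). The single lower member was Xpc, a nucleotide excision repair gene (-0.40 ± 0.05), which was also lower under vehicle (-0.28). Trp53 RNA itself was at 279.6 to 326 CPM (median 296) in Jak2V617F cells, against 307 to 394 CPM (median 341) in WT cells (log2 fold change -0.22 ± 0.04, adjusted p = 0.00126), lower in each of the 6 mice, with a called interaction (adjusted p = 0.0408). With the mouse ignored, 5 members were higher and 1 lower, and Btg2, Fas and Trp53inp1 were among those that lost their calls. Without mouse 1 the counts were 13 and 1.

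**Figure D2:**
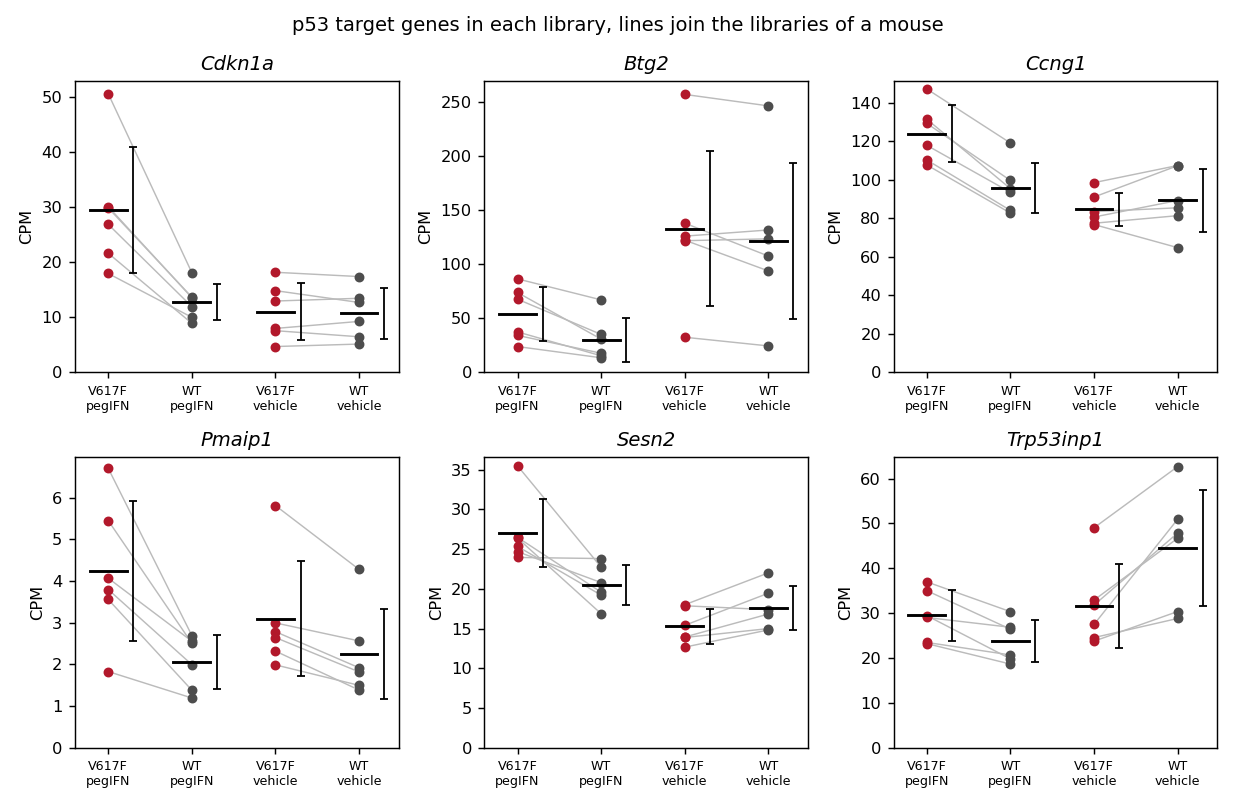
CPM (vertical) of 6 p53 target genes in Jak2V617F cells (red) and WT cells (grey) of pegIFN mice and of vehicle mice. Points are libraries, grey lines join the libraries of a mouse, bars are means and whiskers SD over 6 libraries. Within pegIFN mice each line of Cdkn1a falls towards the WT point, with means of 29.5 and 12.7 CPM, and the vehicle lines of Cdkn1a are close to level.

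Promoters of the p53 targets were searched, since p53 is known to bind upstream of several of them, for the p53 response element, taken as 2 adjacent p53 consensus half-sites (20 letters in all, the same on both strands) with at most 1 letter off. The windows were 250 bases before to 50 after a start site, from RefSeq on GRCm38.p6. Of the 21 genes, 13 had a promoter in the table, 20 promoters in all, and 3 held a site: those of Cdkn1a, Ccng1 and Gtse1. Among all 32851 promoters 29 held one (0.0883%). The Cdkn1a promoter (chr17:29090729-29091028, + strand) and the Ccng1 promoter (chr11:40755237-40755536, - strand) are shown with the matched letters in capitals. A match is a description of the letters and does not show binding.
Cdkn1a: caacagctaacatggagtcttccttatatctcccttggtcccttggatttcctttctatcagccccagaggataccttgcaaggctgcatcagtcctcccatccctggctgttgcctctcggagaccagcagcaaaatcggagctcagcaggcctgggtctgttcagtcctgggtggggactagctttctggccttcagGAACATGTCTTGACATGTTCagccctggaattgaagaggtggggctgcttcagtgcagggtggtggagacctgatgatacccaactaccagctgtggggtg
Ccng1: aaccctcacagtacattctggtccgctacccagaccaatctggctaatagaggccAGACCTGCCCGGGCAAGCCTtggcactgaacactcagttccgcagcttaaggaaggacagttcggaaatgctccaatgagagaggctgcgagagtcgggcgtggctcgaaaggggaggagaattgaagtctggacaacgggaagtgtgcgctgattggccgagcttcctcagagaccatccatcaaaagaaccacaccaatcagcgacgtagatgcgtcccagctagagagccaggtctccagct

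Of 5 pro-survival genes of the Bcl-2 family 2 were higher and none lower, and of 10 pro-apoptotic genes 2 were higher and none lower, where 24.6% of all autosomal genes were called. Bcl2l1, which encodes Bcl-xL, the pro-survival protein that the series as a whole is about, was at 77.1 to 95 CPM (median 90.3) in Jak2V617F cells, against 64.9 to 84 CPM (median 74.5) in WT cells. It was higher in Jak2V617F cells in 6 of 6 mice, with a log2 fold change of 0.26 ± 0.05 under pegIFN (adjusted p = 8.10e-04) and 0.21 ± 0.05 under vehicle (adjusted p = 0.00289), and the interaction was 0.05 ± 0.07 (adjusted p = 0.728). Mcl1 was higher by 0.14 ± 0.04 (adjusted p = 0.0132) under pegIFN and at -0.09 under vehicle (adjusted p = 0.0757), with a called interaction, and Bcl2 was at 0.12 ± 0.05 (adjusted p = 0.112). The pro-apoptotic members called were Bax and Pmaip1 (above), which was at 1.01 ± 0.14. Bax, which permeabilises the outer mitochondrial membrane, was at 63.3 to 91.7 CPM (median 78.7) in Jak2V617F cells, against 56.2 to 63.4 CPM (median 60.3) in WT cells (log2 fold change 0.39 ± 0.07, adjusted p = 5.04e-04), and was higher by 0.36 ± 0.07 under vehicle. Bak1 and Bcl2l11, which encodes Bim, were not called, at 0.08 ± 0.04 and -0.09 ± 0.07. When pairs were ignored, neither Bcl2l1 nor Mcl1 was called, and leaving out mouse 1 or mouse 4 ended the call of Mcl1.

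Cycs, which encodes cytochrome c, was higher by 0.36 ± 0.06 and Daxx, a Fas-associated and nuclear protein, lower, at -0.23 ± 0.05. Over the 26 death receptor and caspase genes tested, 4 were higher and 4 lower, with a median of 0.00. That is 30.8% called, against 24.6% of all autosomal genes. Without mouse 1, 3 or 4, 2 of the 26 were higher. Without the mouse terms, the counts were 1 and 2.

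Many genes that type I interferon induces were slightly lower in Jak2V617F cells. Of 45 tested, 24 were lower and 1 was higher, with a median of -0.16, against 19 lower and 4 higher with a median of -0.11 under vehicle. Of all autosomal genes, 11.4% were lower and 13.2% higher under pegIFN, and 13.7% and 17.7% under vehicle. The interaction was called for 2 of the 45, both more negative under pegIFN, against 3.38% of all autosomal genes in either direction. It was called for none of the 45 without pegIFN mouse 4, without vehicle mouse 4 or 5, or by limma-voom. Irf7, the transcription factor that amplifies interferon production, was at 556 to 690.0 CPM (median 633) in Jak2V617F cells, against 646 to 874 CPM (median 738) in WT cells (log2 fold change -0.26 ± 0.05, adjusted p = 0.0015), and at 13.2 to 23.6 CPM (median 17.5) in Jak2V617F cells and 12 to 26.2 CPM (median 18.6) in WT cells under vehicle. The pegIFN groups thus overlapped each other and lay far above both vehicle groups. Ifih1, which encodes the RNA sensor MDA5, was at 199.9 to 233 CPM (median 208) in Jak2V617F cells, against 242 to 303 CPM (median 263) in WT cells, with no overlap (log2 fold change -0.33 ± 0.05, adjusted p = 2.89e-04). Parp14 and Trim25 were lower, at -0.32 ± 0.06 and -0.23 ± 0.04. The antiviral gene Mx1 was at 79.3 to 127 CPM (median 96.4) in Jak2V617F cells, against 73.9 to 124 CPM (median 92.3) in WT cells (log2 fold change 0.06 ± 0.13, adjusted p = 0.781), and the ubiquitin-like modifier Isg15 at 158 to 212 CPM (median 194) in Jak2V617F cells, against 167 to 220.3 CPM (median 189.6) in WT cells (log2 fold change -0.02 ± 0.05, adjusted p = 0.794). Neither was called; under vehicle Mx1 was at a median of 1.36 CPM in Jak2V617F cells and 1.97 CPM in WT cells, and Isg15 at 5.86 and 4.26 CPM. Ifi27l2a was the single higher member (0.39 ± 0.06). In mouse 3 the list's median ratio was 0.03, and in the other 5 it ran from -0.26 to -0.12. In the unpaired fit, 6 were lower and 1 higher, and Irf7, Parp14 and Trim25 lost their calls. Without mouse 1, 18 were lower and 1 higher. Of 16 interferon-inducible GTPases, 1 was higher (Ifi47, 0.15 ± 0.05) and 2 lower (Irgm1, -0.15 ± 0.05, and Gvin1, -0.23 ± 0.08), none of which was called without the mouse terms and each of which was lost on leaving out at least 3 of the mice in turn. The share called was 18.8%, below the 24.6% of all autosomal genes.

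Class I antigen presentation was split. Of 23 genes tested, 5 were higher and 8 lower, and 3 were higher without mouse 1 or mouse 4. The higher ones included the endoplasmic reticulum chaperones Pdia3 (0.32 ± 0.05) and Calr (0.23 ± 0.04), the lower ones Tapbp, which loads peptide onto class I molecules (-0.23 ± 0.04), and the non-classical class I gene H2-T23 (-0.25 ± 0.05). Reads of class I genes can be shared among near-identical copies, so single values of that family are uncertain. With the mouse ignored, 1 was higher and none lower.

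The components that carry cytokine signals were lower more often than higher. Of 25 interferon receptor and JAK-STAT genes, 8 were lower and 2 higher under pegIFN, against 12 lower and 2 higher under vehicle. Under pegIFN that is 40% called, against 24.6% of all autosomal genes (13.2% higher and 11.4% lower). Jak2 itself (chromosome 19, 29251828 to 29313080) was at 112 to 138 CPM (median 128) in Jak2V617F cells, against 149 to 161 CPM (median 155) in WT cells, with no overlap (log2 fold change -0.30 ± 0.05, adjusted p = 3.48e-04), and was also lower under vehicle (-0.22 ± 0.05). The mutant allele cannot be read from a table of gene counts. Stat5a and Stat5b, the transcription factors downstream of Jak2, were lower, at -0.31 ± 0.05 and -0.35 ± 0.04. For Stat5b the values were 169 to 195 CPM (median 191) in Jak2V617F cells, against 200.4 to 268 CPM (median 243) in WT cells, and they did not overlap. Ifngr1, the ligand-binding chain of the interferon gamma receptor, was at 75.5 to 104 CPM (median 84.4) in Jak2V617F cells, against 100.0 to 193 CPM (median 142) in WT cells (log2 fold change -0.72 ± 0.09, adjusted p = 1.41e-04), and at -0.06 under vehicle, and its interaction was called (-0.66 ± 0.13). The signalling partners Jak1 (-0.16), Tyk2 (-0.27) and Stat2 (-0.17) were lower too. The chains of the type I interferon receptor were not called: Ifnar1 was at -0.12 ± 0.05 (adjusted p = 0.0819) and Ifnar2 at -0.03 ± 0.05 (adjusted p = 0.704). When pairs were ignored, 5 of the 25 were lower and 1 higher.

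Genes induced by JAK2 and STAT5 were called in both directions: of 25 tested, 6 were higher and 6 lower. The higher ones were 3 without mouse 1 or mouse 3, 2 by limma-voom and 1 without the mouse terms, and the lower ones 4 without mouse 1, 5 by limma-voom and 2 without the mouse terms. Socs3, a feedback inhibitor of JAK kinases, was at 5.80 to 26 CPM (median 15.5) in Jak2V617F cells, against 4.36 to 18.8 CPM (median 11.3) in WT cells (log2 fold change 0.57 ± 0.09, adjusted p = 5.10e-04), higher in 6 of 6 mice, and at -0.18 under vehicle (adjusted p = 0.127), with the interaction at 0.75 ± 0.13 (adjusted p = 0.00849). Cish, Socs2 and Pim1, further STAT5 targets, were not called, at 0.08 ± 0.11, 0.31 ± 0.20 and 0.10 ± 0.06. Trib2, a pseudokinase that promotes degradation of C/EBP alpha, was lower, at -2.37 ± 0.22 (adjusted p = 6.48e-05). It was at 8.72 to 29.8 CPM (median 18) in Jak2V617F cells, against 53.5 to 144 CPM (median 96.7) in WT cells under pegIFN, with no overlap, and at 2.88 to 8.79 CPM (median 4.70) in Jak2V617F cells and 6.02 to 10.7 CPM (median 6.72) in WT cells under vehicle. The promoters of the 4 called members with the smallest p (Cdkn1a, Trib2, Socs3 and Bcl2l1, 7 promoters) were searched for TTCNNNGAA, the core to which STAT5 binds, which reads the same on both strands. 1 of the 7 held it, that of Socs3 (chr11:117969317-117969616, - strand), as did 8.3% of all 32851. It is printed with the match in capitals.
Socs3: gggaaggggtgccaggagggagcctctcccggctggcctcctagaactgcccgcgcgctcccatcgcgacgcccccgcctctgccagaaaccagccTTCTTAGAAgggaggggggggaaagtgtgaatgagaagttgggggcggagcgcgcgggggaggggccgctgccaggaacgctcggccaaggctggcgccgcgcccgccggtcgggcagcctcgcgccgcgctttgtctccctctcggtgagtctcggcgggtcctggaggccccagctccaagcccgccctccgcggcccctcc

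Among 16 receptors that signal through Jak2, 3 were higher and 2 lower (31.2% called, against 24.6% of all autosomal genes). Csf3r, the receptor of granulocyte colony-stimulating factor, was at 26.7 to 74.4 CPM (median 46.7) in Jak2V617F cells, against 19.7 to 41.5 CPM (median 25.8) in WT cells (log2 fold change 0.84 ± 0.11, adjusted p = 1.93e-04), and at -0.11 under vehicle, with the interaction at 0.95 ± 0.15 (adjusted p = 0.00849). Csf2rb, the chain shared by the receptors of IL-3, IL-5 and GM-CSF, was higher by 0.40 ± 0.07 and Lifr by 0.85 ± 0.22. Epor, the erythropoietin receptor, was lower (-0.24 ± 0.08, adjusted p = 0.0353). Calls of Csf3r, Csf2rb, Socs3 and Epor were lost without the mouse terms, and that of Epor also on leaving out mouse 1, 3 or 4.

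The genotype difference in most genes of mitosis was less positive under pegIFN than under vehicle. Of 25 genes of G2/M and mitosis, 7 were higher and 18 not called under pegIFN, with a list median of 0.14, against 24 under vehicle, with a median of 0.59, and none was lower in either. The interaction was called for 20 of the 25, all more negative under pegIFN, and for 8 by limma-voom. On leaving out 1 mouse at a time from either treatment, 10 to 24 of the list were called (10 without vehicle mouse 4, whose WT library stood apart), and none without the mouse terms. Ube2c, the ubiquitin-conjugating enzyme of the anaphase-promoting complex, was at 75.2 to 99.1 CPM (median 90.2) in Jak2V617F cells, against 66.2 to 75.6 CPM (median 69) in WT cells under pegIFN (log2 fold change 0.34 ± 0.07, adjusted p = 0.0035), and at 66.1 to 93.2 CPM (median 86.1) in Jak2V617F cells and 29 to 55.5 CPM (median 39.7) in WT cells under vehicle (log2 fold change 0.97 ± 0.08, adjusted p = 2.55e-06). The vehicle groups were apart, and under pegIFN WT cells lay closer to Jak2V617F cells. Cdk1, Ccna2 and Ccnb1, the mitotic kinase and cyclins, were higher by 0.38 ± 0.06, 0.30 ± 0.07 and 0.36 ± 0.09 under pegIFN, and by 0.71 ± 0.06, 0.65 ± 0.07 and 0.89 ± 0.09 under vehicle. Mki67, a marker of cycling cells, was at 709 to 933 CPM (median 841) in Jak2V617F cells, against 739 to 920.1 CPM (median 861) in WT cells under pegIFN (log2 fold change -0.03 ± 0.07, adjusted p = 0.832) and higher by 0.41 ± 0.07 under vehicle. The mitotic kinase Nek2 had the same pattern, at 0.06 ± 0.06 (adjusted p = 0.536) and 0.72 ± 0.06 (adjusted p = 2.55e-06). Among 27 G1/S and DNA replication genes, 12 were higher under pegIFN, with a median of 0.13, against 25 under vehicle, with a median of 0.23, and 1 had a called interaction. Rrm2, a ribonucleotide reductase subunit, was higher by 0.34 ± 0.06 under pegIFN and 0.38 ± 0.06 under vehicle. Gins1, Gins2 and Rfc4, of the replication machinery, were higher by 0.27 ± 0.05, 0.25 ± 0.05 and 0.31 ± 0.06. Cdc25b, a phosphatase that starts mitosis and is in neither list, was called in opposite directions, at -0.26 ± 0.07 under pegIFN and 0.47 ± 0.07 under vehicle. DNA repair genes, which overlap in function with replication, had 3 of 22 higher and 1 lower under pegIFN, against 14 higher and 1 lower under vehicle. The share called under pegIFN was 18.2%, below the 24.6% of all autosomal genes. Without mouse 2, 3 or 4 none of the 22 was higher under pegIFN, and without mouse 1, 1 was. Without the mouse terms, 1 G2/M gene and 1 G1/S gene were called under pegIFN.

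Of 30 long-term stem cell genes tested, 2 were higher and 3 lower under pegIFN. That is 16.7% called, against 24.6% of all autosomal genes (13.2% higher and 11.4% lower). Under vehicle none was higher and 14 were lower, where 17.7% and 13.7% of all autosomal genes were. For 3 the interaction was called, all more positive under pegIFN, against 3.38% of all autosomal genes in either direction. Leaving out 1 mouse at a time gave 0 (without mouse 4) to 3 higher, 3 to 7 lower (7 without mouse 3), and 1 to 8 interactions (8 without pegIFN mouse 6, 1 without any other pegIFN mouse or without vehicle mouse 4, 5 or 6). Meis1, a homeobox partner of the Hox proteins, was called in opposite directions, at 0.15 ± 0.04 under pegIFN (adjusted p = 0.0163) and -0.27 ± 0.04 under vehicle (adjusted p = 2.16e-04). Hlf, a transcription factor of long-term stem cells, was at 58 to 212 CPM (median 92.4) in Jak2V617F cells, against 70.2 to 127 CPM (median 86.6) in WT cells under pegIFN (log2 fold change 0.07 ± 0.15, adjusted p = 0.78), and Mecom at 34.9 to 77.8 CPM (median 39.6) in Jak2V617F cells, against 33.5 to 64.3 CPM (median 40.6) in WT cells (log2 fold change -0.04 ± 0.10, adjusted p = 0.811). Both were lower in Jak2V617F cells under vehicle, at -0.56 ± 0.14 and -0.39 ± 0.10. Procr, which encodes the endothelial protein C receptor EPCR, was not called in either treatment (0.05 ± 0.20 and -0.28 ± 0.17). The difference between treatments was not called for Hlf, Mecom or Procr (adjusted p 0.113, 0.184 and 0.54). Kit, the stem cell factor receptor used in the sort, was at 275 to 462 CPM (median 319) in Jak2V617F cells, against 457 to 592 CPM (median 489) in WT cells (log2 fold change -0.61 ± 0.06, adjusted p = 1.02e-05), lower in 6 of 6 mice, and its log2 fold change was -0.59 ± 0.06 under vehicle. Gata2, a master regulator of stem cells, was lower, at -0.40 ± 0.06 under pegIFN and -0.31 ± 0.06 under vehicle. Calls of Meis1 were lost without the mouse terms and on leaving out mouse 4.

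Genes that hold stem cells in quiescence had 3 of 20 higher and 7 lower. That is 50% called, against 24.6% of all autosomal genes (13.2% higher and 11.4% lower). The higher ones of the 20 were Cdkn1a, Btg2 and Egr1. Among the lower ones, Txnip, an inhibitor of thioredoxin, was at 199.8 to 335 CPM (median 235) in Jak2V617F cells, against 308 to 426 CPM (median 356) in WT cells (log2 fold change -0.55 ± 0.06, adjusted p = 3.61e-05), and Foxo3, a factor that protects stem cells from oxidative stress, at 132 to 151 CPM (median 142) in Jak2V617F cells, against 149 to 204 CPM (median 192) in WT cells (log2 fold change -0.41 ± 0.05, adjusted p = 1.03e-04). Both were also lower under vehicle (-0.70 ± 0.06 and -0.33 ± 0.05). Genes of TGF-beta and BMP signalling, which restrain stem cell division, were lower in 10 of 21 cases and higher in none, with a median of -0.25, against 11 lower and 2 higher under vehicle. The share called under pegIFN was 47.6%, against 24.6% of all autosomal genes (11.4% lower). Tgfbr2, the type II TGF-beta receptor, was at 39.5 to 61.6 CPM (median 45.8) in Jak2V617F cells, against 52.4 to 68.2 CPM (median 64) in WT cells (log2 fold change -0.42 ± 0.06, adjusted p = 2.35e-04). Smad3 was lower, at -0.25 ± 0.05, the feedback inhibitor Smad7 at -0.49 ± 0.10 and the co-receptor Tgfbr3 at -0.30 ± 0.05. The largest difference of the list was in Bmpr1a, a type I BMP receptor, at -1.85 ± 0.37 under pegIFN and -1.95 ± 0.35 under vehicle. The list's median ratio lay below 0 in each of the 6 pegIFN mice (-0.31 to -0.05). In the unpaired fit, 6 were lower.

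The autosomal list with the largest median was that of granulocyte and monocyte genes, of which 19 of 26 were higher and none lower in Jak2V617F cells under pegIFN, with a median log2 fold change of 1.25. Under vehicle 9 were higher and none lower, with a median of 0.86, and 3 had a called interaction (none by limma-voom). Elane, which encodes neutrophil elastase, was at 72.1 to 159 CPM (median 131) in Jak2V617F cells, against 9.12 to 52.1 CPM (median 37) in WT cells, with no overlap (log2 fold change 2.05 ± 0.48, adjusted p = 0.0109). Ctsg, cathepsin G of the same granules, was at 31 to 72 CPM (median 60.6) in Jak2V617F cells, against 5.16 to 20.005 CPM (median 15.9) in WT cells, also with no overlap (log2 fold change 2.05 ± 0.43, adjusted p = 0.00643). S100a8 and S100a9, subunits of calprotectin, were higher by 2.13 ± 0.36 and 1.93 ± 0.35. Itgam, which encodes the CD11b used to deplete mature cells, was at 7.62 to 20.8 CPM (median 12) in Jak2V617F cells, against 2.89 to 14 CPM (median 4.83) in WT cells (log2 fold change 1.23 ± 0.16, adjusted p = 1.46e-04), and Fcgr3, which encodes the Fc receptor CD16, at 5.42 to 13.4 CPM (median 5.84) in Jak2V617F cells, against 0.598 to 3.86 CPM (median 1.96) in WT cells (log2 fold change 1.89 ± 0.28, adjusted p = 4.15e-04). Ly6g, a neutrophil antigen of the sort that is not in this list, was at 0.0918 to 1.29 CPM (median 0.282) in Jak2V617F cells, against 0 to 0.381 CPM (median 0.0638) in WT cells, higher by 1.92 ± 0.51. Summed over the 26 genes, the level was 1179 to 1986 CPM in the Jak2V617F libraries, against 374 to 1052 CPM in the WT libraries. Of the 26, Cd14 had the lowest mean in WT cells and averaged 0.450 CPM in Jak2V617F cells and 0.156 CPM in WT cells, so none of the 26 was at 0 throughout a genotype. Bulk RNA does not tell a larger number of myeloid-primed or contaminating cells from more of this RNA per cell, and the part of either in the result was not tested. With the mouse ignored, 9 were higher, and without mouse 1 14 were. S100a8, S100a9, Itgam and Ly6g lost their calls without the mouse terms, and Ly6g also without mouse 1.

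The 15 largest increases were taken among called genes with a mean log2 CPM of at least 1 and the same direction in 6 of 6 mice, and 6 of them are in the list above (Elane, Ctsg, S100a8, S100a9, Fcgr3 and Fcnb). Below that level, Niacr1, a niacin receptor, was higher by 2.96 ± 0.29. Retnlg, a resistin-like secreted protein of neutrophils (chromosome 16, 48872608 to 48874498), was at 4.84 to 27.3 CPM (median 13.7) in Jak2V617F cells, against 0.0997 to 7.52 CPM (median 1.97) in WT cells (log2 fold change 2.61 ± 0.59, adjusted p = 0.00955), with a wide range within each genotype. Slfn4, a Schlafen gene of myeloid cells, was at 44.9 to 308 CPM (median 99.2) in Jak2V617F cells, against 4.55 to 55.6 CPM (median 17.7) in WT cells (log2 fold change 2.44 ± 0.45, adjusted p = 0.0033), and under vehicle at 1.04 to 21 CPM (median 7.96) in Jak2V617F cells and 0.283 to 8.61 CPM (median 2.15) in WT cells. Mmp8 and Mmp9, neutrophil collagenase and gelatinase, were higher by 2.25 ± 0.49 and 2.22 ± 0.54, and the chemokine Ccl6 by 2.13 ± 0.31. The chemokine receptor Ccr1, whose level was too low for the 15, was higher by 2.19 ± 0.25. The interaction was called for Ccl6 (1.75 ± 0.43) and Ccr1 (1.47 ± 0.35). Vcam1, an adhesion molecule also found on macrophages, was higher by 1.92 ± 0.39, and Cd5l, a secreted protein of macrophages, by 2.25 ± 0.38. Mmp8, Mmp9, S100a8 and S100a9 were the members of these 15 that lost their calls without the mouse terms. Fcnb, Trem3 and Cd300lf were the others of the 15 (1.89, 1.89 and 1.93), and leaving out mouse 1 or mouse 5 ended the call of Fcnb.

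Of the 15 largest decreases, chosen in the same way, several were RNAs that were low in both genotypes under vehicle and lower in Jak2V617F than in WT cells under pegIFN. Il31ra, a cytokine receptor chain of the IL-6 receptor family, was at 0.884 to 3.07 CPM (median 2.02) in Jak2V617F cells, against 5.78 to 24.3 CPM (median 12.2) in WT cells under pegIFN, with no overlap (log2 fold change -2.73 ± 0.23, adjusted p = 3.87e-06), and at 0.265 to 0.688 CPM (median 0.439) in Jak2V617F cells and 0.370 to 0.748 CPM (median 0.595) in WT cells under vehicle (log2 fold change -0.33 ± 0.31, adjusted p = 0.458). Kif26b, a kinesin family member, was at 0.945 to 2.47 CPM (median 1.42) in Jak2V617F cells, against 3.36 to 12.7 CPM (median 9.82) in WT cells under pegIFN (log2 fold change -2.50 ± 0.26, adjusted p = 2.06e-05) and at 0.197 to 1.16 CPM (median 0.577) in Jak2V617F cells and 0.183 to 0.606 CPM (median 0.369) in WT cells under vehicle, and Scin, an actin-severing protein, at 8.38 to 18.4 CPM (median 14.8) in Jak2V617F cells, against 35.6 to 91.8 CPM (median 64.2) in WT cells (log2 fold change -2.16 ± 0.21, adjusted p = 7.99e-05) and at 0.123 to 6.16 CPM (median 1.42) in Jak2V617F cells and 0.445 to 4.64 CPM (median 0.826) in WT cells. For both the pegIFN groups did not overlap, and the interaction was called (-3.02 ± 0.44 and -2.52 ± 0.41). Il1rl1, which encodes the IL-33 receptor ST2, was lower, at -1.60 ± 0.19 under pegIFN and at -0.07 under vehicle, with the interaction at -1.53 ± 0.30 (adjusted p = 0.0198). Its pegIFN values were 6.16 to 19.2 CPM (median 18) in Jak2V617F cells, against 33 to 81.2 CPM (median 44) in WT cells. Trib2 (above), Zg16, Plxdc1, St8sia6 and Slc45a3 were likewise not called under vehicle, and their interactions were -1.81, -2.08, -1.98, -1.60 and -1.79, all called. Prss50, a serine protease (-2.42), Ptpn14, a tyrosine phosphatase (-2.10), and Psma8 were not called under vehicle either, but nor were their interactions (-2.01, -1.42 and -1.46, adjusted p 0.103, 0.0545 and 0.326). Siglec5, a sialic acid-binding receptor named for its interaction, had the same form, with -1.40 ± 0.14 under pegIFN and 0.05 ± 0.15 under vehicle. Ctse, which encodes the aspartic protease cathepsin E (chromosome 1, 131638306 to 131675503), was the largest decrease of the 15 and differed in both treatments. It was at 24.6 to 97.5 CPM (median 34.7) in Jak2V617F cells, against 262 to 434 CPM (median 350.1) in WT cells under pegIFN (log2 fold change -3.13 ± 0.33, adjusted p = 1.93e-04) and at 20.6 to 47.9 CPM (median 31.2) in Jak2V617F cells and 98.8 to 238 CPM (median 211) in WT cells under vehicle (log2 fold change -2.64 ± 0.33, adjusted p = 2.68e-04), with no overlap in either. Its highest Jak2V617F value under pegIFN came from mouse 1, the library with the most Xist, and the part of that library was not tested. Serpinb8, an intracellular protease inhibitor, was likewise lower in both (-1.56 and -1.35), as was Pdgfrb, a platelet-derived growth factor receptor (-1.73 and -0.71), although its interaction was called. Psma8, at -1.89 ± 0.56, lost its call without the mouse terms and on leaving out mouse 1, 3 or 4, and St8sia6 without the mouse terms.

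**Figure D3:**
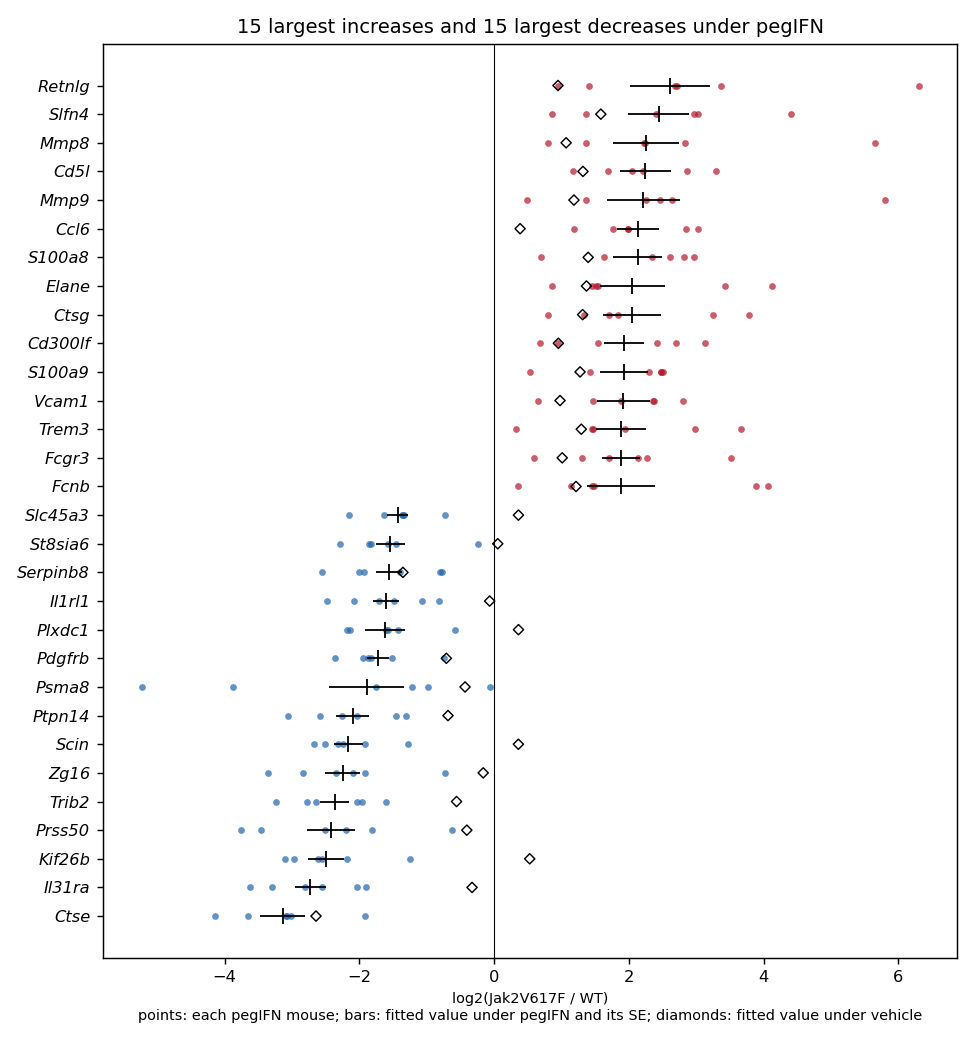
Within-mouse log2 ratio of Jak2V617F over WT (horizontal) in each of the 6 pegIFN mice (points) for the 15 largest increases (red) and 15 largest decreases (blue) at a mean log2 CPM of at least 1 by name (vertical), with the fitted value and its SE under pegIFN (black bars) and the fitted value under vehicle (diamonds). The diamonds of Il31ra, Kif26b, Scin and Il1rl1 lie between -0.33 and 0.53, and that of Ctse lies at -2.64 near its pegIFN value of -3.13.

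Several erythroid genes were lower. Of 29 tested, 11 were lower and 2 higher, with a median of -0.10. Their summed level was 3590 to 4590 CPM in Jak2V617F libraries, against 4642 to 5885 CPM in WT libraries. Under vehicle 4 were lower and 2 higher, with a median of -0.125, close to that under pegIFN. The interaction was called as more positive under pegIFN for 1 and as more negative for 2, with a list median of 0.00313. Klf1, the erythroid master regulator, was at 21.5 to 63.8 CPM (median 55.5) in Jak2V617F cells, against 61 to 127 CPM (median 84.7) in WT cells (log2 fold change -0.78 ± 0.17, adjusted p = 0.00592), and at 12 to 26.6 CPM (median 17.3) in Jak2V617F cells and 12.1 to 29.1 CPM (median 19.9) in WT cells under vehicle. Aqp1, the water channel of red cells, was at 180.3 to 305 CPM (median 254) in Jak2V617F cells, against 309.9 to 561 CPM (median 472) in WT cells, with no overlap (log2 fold change -0.91 ± 0.14, adjusted p = 0.00114), and Myb, a regulator of progenitors of this lineage, at 357 to 456 CPM (median 413) in Jak2V617F cells, against 553 to 804 CPM (median 637) in WT cells, with no overlap (log2 fold change -0.66 ± 0.06, adjusted p = 7.27e-06). Myb and Aqp1 also had called interactions (-0.45 ± 0.08 and -0.87 ± 0.20), and the interaction of Klf1 was not called (-0.66 ± 0.25, adjusted p = 0.167). The surface and enzyme genes Car1 (-1.27), Tspo2 (-1.36) and Ermap (-0.88) were lower too, while Tfrc, the transferrin receptor, was higher (0.33 ± 0.11). Adult globin genes Hba-a1 and Hba-a2, whose copies are nearly identical, were not called (-0.11 and -0.09). When pairs were ignored, 5 were lower, and Klf1 lost its call.

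Of 33 megakaryocyte and platelet genes, 11 were higher and none lower, with a median of 0.21, against 18 higher and 2 lower with a median of 0.29 under vehicle. The share called under pegIFN was 33.3%, against 24.6% of all autosomal genes (13.2% higher). Cd9, a tetraspanin of platelets, was at 170.0 to 213 CPM (median 194) in Jak2V617F cells, against 127 to 163 CPM (median 152) in WT cells, with no overlap (log2 fold change 0.40 ± 0.07, adjusted p = 6.67e-04), and Fli1, a megakaryocyte transcription factor, at 192 to 218 CPM (median 208) in Jak2V617F cells, against 150.5 to 188 CPM (median 181) in WT cells, with no overlap (log2 fold change 0.24 ± 0.05, adjusted p = 0.00322). Itga2b, which encodes CD41, was not called under pegIFN (0.21 ± 0.10, adjusted p = 0.17) but higher under vehicle (0.43 ± 0.10), and Vwf, a mark of platelet-biased stem cells, was called in neither (0.13 ± 0.18 and 0.41 ± 0.18). Without the mouse terms, 2 were higher, and without mouse 1 or mouse 4 7 or 6 were. Enzymes of leukotriene and prostaglandin synthesis, several of them platelet or myeloid genes, were higher in 7 of 15 cases and lower in none, and in 4 without mouse 1. Alox5, the 5-lipoxygenase, was at 59.7 to 111 CPM (median 73.3) in Jak2V617F cells, against 36.7 to 58.6 CPM (median 45.1) in WT cells, with no overlap (log2 fold change 0.76 ± 0.14, adjusted p = 0.0018), and was higher by 1.40 ± 0.15 under vehicle. Its partner Alox5ap was higher by 0.27 ± 0.05 under pegIFN and at -0.09 under vehicle, and Ptgs1 and Tbxas1, which lead to thromboxane, were higher by 0.29 ± 0.05 and 0.28 ± 0.05.

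Lists of other lineages were short. Of mast cell and basophil genes 38.5% were called and of early lymphoid genes 40%, against 24.6% of all autosomal genes (13.2% higher and 11.4% lower). B lymphoid, T and NK, and endothelial and stromal genes lay below that share, at 22.2%, 20% and 11.1%. Adhesion and homing receptors lay above it, at 35%, as did gate antigens, at 45.5%. Of 13 mast cell and basophil genes, 2 were higher, among them Hdc, the histamine-forming enzyme (1.5 ± 0.32), and 3 lower, among them Kit and Il1rl1. Early lymphoid genes had 3 of 15 higher and 3 lower, with Bcl11a at -0.39 ± 0.05 and Ikzf1 at -0.33 ± 0.05. Of 9 B lymphoid genes, 2 were higher and none lower. One was Blnk, a signalling adaptor, which was under 1 CPM in each pegIFN library and lost its call without the mouse terms and on leaving out mouse 1, 3, 4, 5 or 6. Of 5 T and NK genes tested, Nkg7 was higher (0.46 ± 0.15), a call lost without the mouse terms and on leaving out any mouse but 3. Of 9 endothelial and stromal genes, Pdgfrb was lower. Among adhesion and homing receptors, 3 of 20 were higher and 4 lower (1 without mouse 1 or 2, 2 without mouse 4 or 5), with Itga4, a subunit of VLA-4, lower, at -0.40 ± 0.06. Of 11 gate antigens, 3 were higher (Itgam, Ly6g and Flt3) and 2 lower (Kit and Spn, -0.27 ± 0.04).

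**Figure D4:**
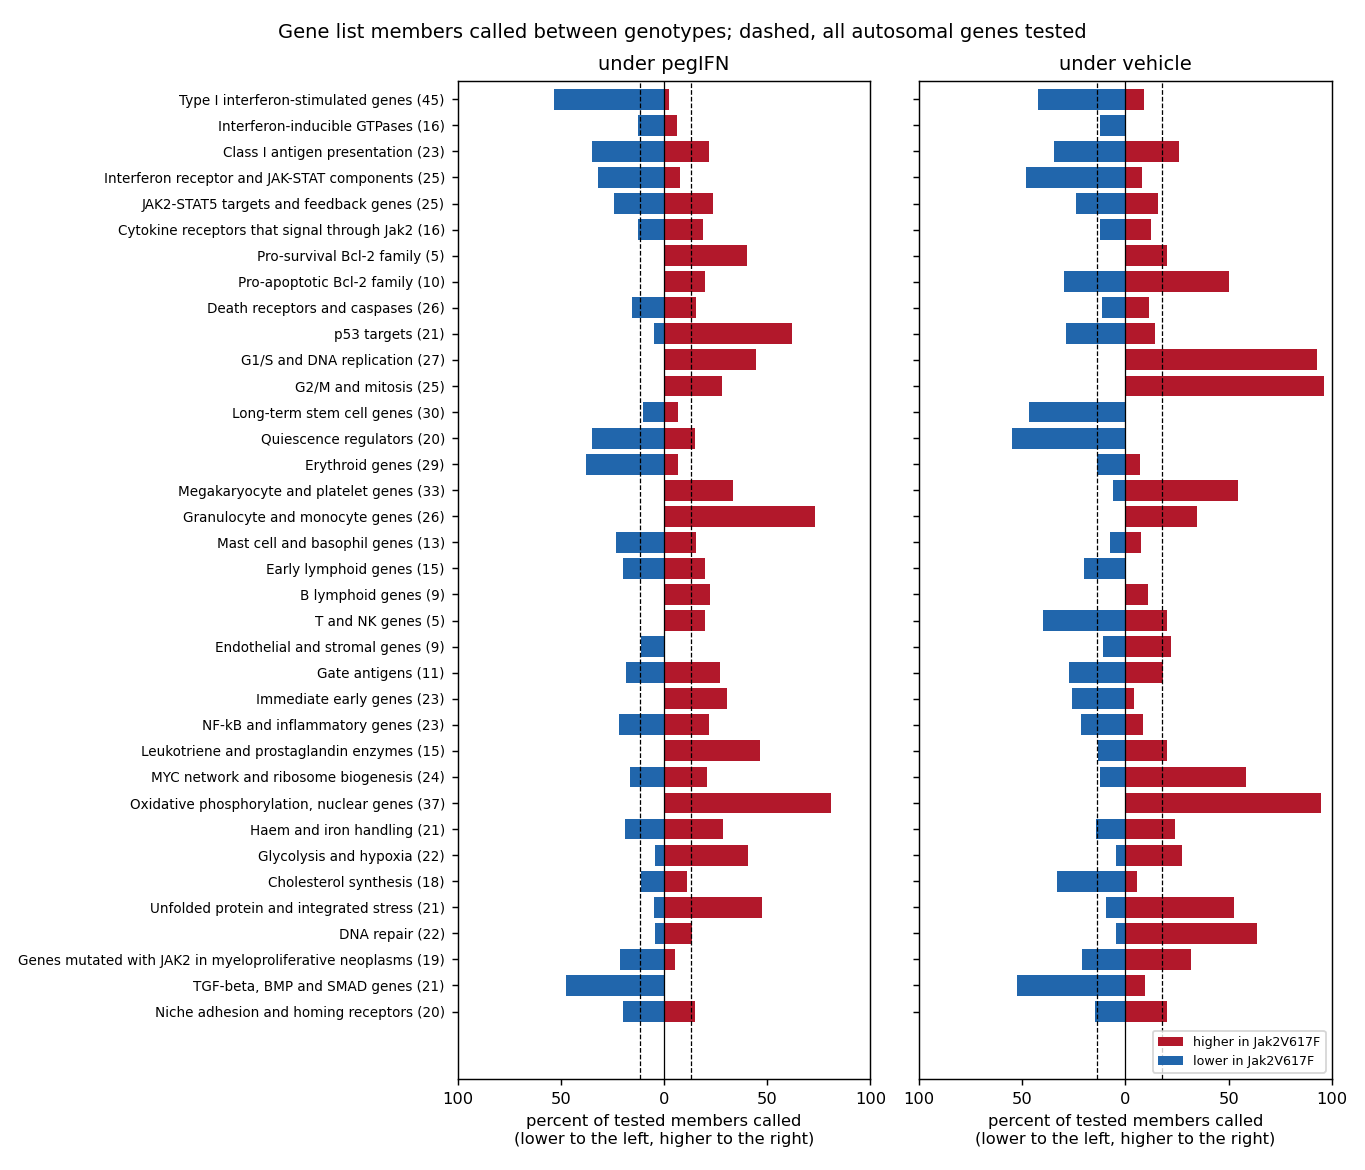
Percent of the tested members of each gene list (number in brackets) called higher in Jak2V617F cells (red, right) or lower (blue, left), under pegIFN in the left panel and under vehicle in the right panel, with the percent over all autosomal genes dashed. Granulocyte and monocyte genes and p53 targets reach further right under pegIFN than under vehicle, and cell cycle lists reach further right under vehicle.

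Nuclear genes of oxidative phosphorylation were higher in 30 of 37 cases and lower in none, with a median of 0.21, against 35 of 37 with a median of 0.31 under vehicle. No interaction was called. Ndufv2, a complex I subunit, was at 77.3 to 110.5 CPM (median 98.9) in Jak2V617F cells, against 65.8 to 85.7 CPM (median 75.2) in WT cells (log2 fold change 0.36 ± 0.05, adjusted p = 1.36e-04), and the complex IV subunits Cox5a, Cox6c and Cox7c were higher by 0.36 ± 0.06, 0.38 ± 0.06 and 0.35 ± 0.05. Reads of mitochondrial genes made up 2 to 3.25% of the Jak2V617F pegIFN libraries, against 1.54 to 2.24% of the WT pegIFN libraries, and 12 of 13 genes of the mitochondrial genome were higher, with a median of 0.51, against none under vehicle, with a median of 0.07. The interaction was called for none of the 13, so a dependence of their difference on treatment was not shown. The part of the mitochondrial read share in the result was not tested. Under vehicle the shares were 2.68 to 3.44% and 2.46 to 4.01%. In the unpaired fit, 16 of the 37 nuclear genes were higher, and without mouse 1 20 were. Nnt, the nicotinamide nucleotide transhydrogenase that is known to be deleted in part in the C57BL/6J substrain, was at 48.6 to 57.5 CPM (median 51.2) in Jak2V617F cells, against 33.2 to 39.1 CPM (median 36.3) in WT cells, with no overlap (log2 fold change 0.52 ± 0.07, adjusted p = 1.10e-04). Both donors are labelled C57Bl/6N, and their genomes were not tested.

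Chaperones and stress response genes were higher in 10 of 21 cases and lower in 1, against 11 and 2 under vehicle. Without mouse 1 or mouse 4, 6 were higher. Hspa5 and Hsp90b1, chaperones of the endoplasmic reticulum, were higher by 0.32 ± 0.05 and 0.32 ± 0.05. Of 22 glycolysis and hypoxia genes, 9 were higher, with Ldha at 0.22 ± 0.04, and 1 lower, Hk1 (-0.29 ± 0.05), and without mouse 1 or mouse 2, 5 were higher. Egln3, an oxygen sensor, was higher by 0.41 ± 0.09 and had a called interaction (0.55 ± 0.12). Of 21 haem and iron genes, 6 were higher and 4 lower, but 1 and 3 without mouse 1, and 2 or 3 were higher without mouse 2, 5 or 6 and 2 without the mouse terms. Slc11a2, which encodes the iron transporter DMT1, was lower under pegIFN (-0.34 ± 0.07) and higher under vehicle (0.29 ± 0.07), with the interaction called (adjusted p = 0.00461). The sign of this list's median changed with the scaling. Cholesterol synthesis had 2 of 18 higher and 2 lower (22.2% called, against 24.6% of all autosomal genes). Without mouse 1, 1 of the 18 was higher and none lower. Of 24 genes of the MYC network and ribosome biogenesis, 5 were higher and 4 lower, against 14 and 3 under vehicle. Myc itself was lower (-0.24 ± 0.05) and Npm1, a nucleolar chaperone, higher (0.28 ± 0.05). With the mouse ignored, 1 stress gene and 0 glycolysis genes were higher, and Hspa5, Hsp90b1, Ldha, Egln3 and Myc lost their calls.

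Immediate early genes were higher in 7 of 23 cases and lower in none under pegIFN, against 1 higher and 6 lower under vehicle, and 4 had a called interaction, all more positive under pegIFN (2 without pegIFN mouse 4 or 5 or vehicle mouse 4, 5 or 6). The share called under pegIFN was 30.4%, against 24.6% of all autosomal genes (13.2% higher). Egr1 was at 82.8 to 357 CPM (median 186) in Jak2V617F cells, against 73.1 to 277 CPM (median 119.8) in WT cells (log2 fold change 0.44 ± 0.09, adjusted p = 0.00325), and at 335 to 1054 CPM (median 837) in Jak2V617F cells and 413 to 1017 CPM (median 828) in WT cells under vehicle. Atf3 and Ier5 were higher by 0.87 ± 0.21 and 0.26 ± 0.05. These genes are induced within minutes by many stimuli. Their sums ran from 1129 to 4210 CPM in Jak2V617F libraries, against 1065 to 4379 CPM in WT libraries, so the spread between mice was far wider than the difference between genotypes. When pairs were ignored, or by limma-voom, none of the 23 was called. NF-kB and inflammatory genes had 5 of 23 higher and 5 lower, with Nfkb2 at -0.35 ± 0.06, Rela at -0.22 ± 0.06, both lower, and Ccl3 higher at 1.04 ± 0.27, all lost without the mouse terms. The higher ones were 3 without mouse 1, 4 or 6, and the lower ones 2 without mouse 2 and 3 without mouse 5 or 6.

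Genes near the loci at which the donors are labelled as different were counted apart. Within 20 Mb of Ptprc on chromosome 1, 31.2% of 186 tested genes were called, 32 higher and 26 lower, and 4.3% were called with an absolute log2 fold change over 1, against 2.06% elsewhere. Over all autosomal genes 24.6% were called. Of the called genes named above, Ctse, Slc45a3, Btg2, Phlda3 and Ier5 lie in this window. Within 20 Mb of Jak2 on chromosome 19, 29.1% of 275 were called, 40 in each direction, and 1.82% were called with an absolute log2 fold change over 1, against 2.1% elsewhere. Fas, Nfkb2, Blnk and Jak2 itself lie there. For the genes of both windows, a linked difference between the donor strains and an effect of Jak2V617F cannot be told apart. Leaving the genes near Ptprc out left 3691 calls. Ptprc, which encodes CD45, was at 117 to 199.8 CPM (median 145) in Jak2V617F cells, against 135 to 181 CPM (median 157) in WT cells (log2 fold change -0.12 ± 0.06, adjusted p = 0.187). Of 19 genes that are mutated with JAK2 in myeloproliferative neoplasms, 1 was higher and 4 lower, among them Cbl (-0.21 ± 0.05) and Asxl1 (-0.14 ± 0.04), both lost without the mouse terms. The share called was 26.3%, near the 24.6% of all autosomal genes.

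**Figure D5:**
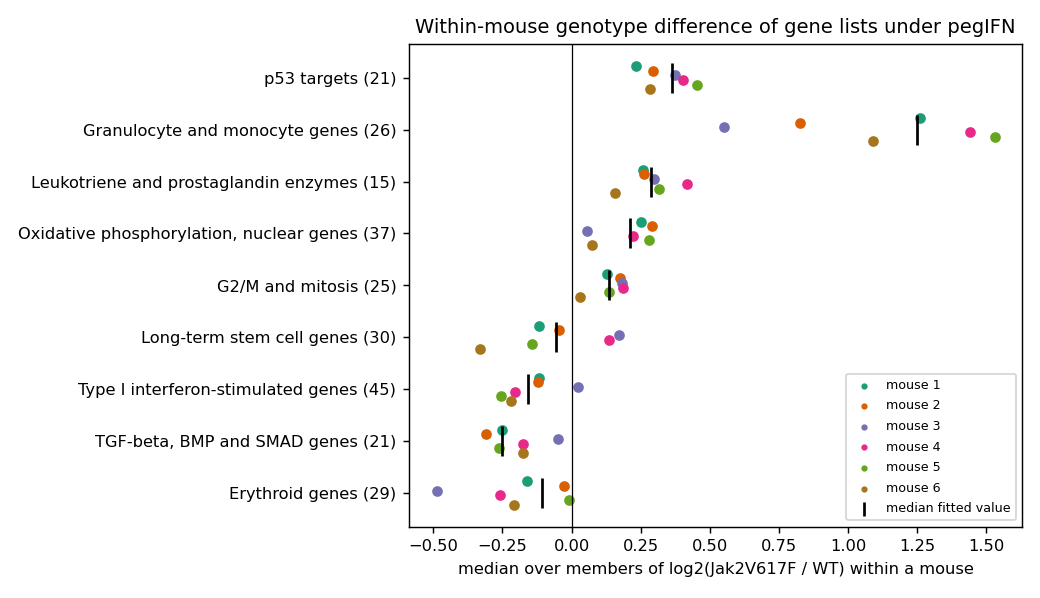
Median over list members of the within-mouse log2 ratio of Jak2V617F over WT (horizontal) for 9 gene lists (vertical, tested members in brackets), 1 point per pegIFN mouse, with the median of the fitted values as a black bar. The p53 targets lie between 0.23 and 0.45 in the 6 mice, granulocyte and monocyte genes between 0.55 and 1.53, and TGF-beta genes between -0.31 and -0.05.

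The mice differed in how far these lists moved, as the plot of list medians by mouse shows. The median of granulocyte and monocyte genes was lowest in mouse 3, at 0.55, and highest in mouse 5, at 1.53. For p53 targets it was lowest in mouse 1, at 0.23, whose Jak2V617F library held the most Xist, and highest in mouse 5, at 0.45. Long-term stem cell genes were above 0 in mice 3 and 4 and below 0 in the other 4, from -0.33 to 0.17. Mouse 3 also had the lowest erythroid median, -0.49, and the smallest shift of TGF-beta genes, -0.05.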

How the data were processed

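RNA of 24 sorted LT-HSC libraries was sequenced. Per the submitters' processing notes, cutadapt 1.11, STAR 2.5.2a and RSEM 1.2.30 were used with GRCm38, and the authors deposited 1 table of expected counts per gene, estimates that need not be whole (16.8% of values were not). They were rounded to whole numbers here, which count tests need. RSEM divides reads among similar genes, so values of near-identical copies are uncertain, and 106 tested genes share a symbol with another. Totals were 24620821 to 39740656 counts a library. Of 38215 genes, 22336 failed edgeR's filterByExpr with a minimum count of 10, and 15879 genes with 99.95% of the counts remained. edgeR 4.0.16 (R 4.3.3) fitted its robust quasi-likelihood model with TMM scaling to all 24 libraries, with a term for each of 12 recipient mice and a genotype effect in each treatment. The interaction is the difference between those effects. Calls are Benjamini-Hochberg adjusted p under 0.05 over all 15879 genes, two-sided. CPM are TMM-scaled, and log2 CPM used a prior count of 2. The pairing comes from mouse numbers in the labels' library names. Deviations from group means of the libraries of a mouse correlated at 0.115 to 0.428 in 12 of 12 pairs. The best match was the partner from the same mouse in 11 of 12 pairs, the exception being pegIFN mouse 5. No libraries were identical.

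The members and 38 gene lists were chosen with earlier results of these data known. The genes named are the 15 largest increases and decreases (called, 6 of 6 mice, mean log2 CPM not below 1), the 4 or fewer called genes per list whose p was smallest, a fixed set, and the 10 with the smallest interaction p. Other list members and the p53 site search were chosen after their values were seen. Of 767 listed symbols 753 are in the table. Alternatives were limma-voom (limma 3.58.1), DESeq2 1.42.0, other scalings and filters, fits without the mouse terms and without each mouse. The code was tested on simulated data. Genes of the sex chromosomes were tested and are not described. Some genes of the lists and of the naming rule are not reported here.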

Additional observations from a re-analysis of the deposited data

Results flagged for a closer look

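In 26 of 294 groups of 6 libraries (a named gene in 1 genotype under pegIFN), 1 library stood apart from the other 5 by Dixon's criterion, which chance meets in about 1 in 20 groups. The Jak2V617F library of pegIFN mouse 1 was the highest for Cd5l (17.1 CPM), Cd300lf (11.1 CPM), Fcgr3 (13.4 CPM), Ctse (97.5 CPM), Prss50 (4.48 CPM) and Ccr1 (11.3 CPM) and the lowest for Ptgs1 (109 CPM). The Jak2V617F library of pegIFN mouse 2 was the lowest for Bcl11a (162 CPM). The Jak2V617F library of pegIFN mouse 3 was the highest for Spn (699 CPM), Alox5ap (121 CPM), Tgfbr2 (61.6 CPM), Smad3 (93.4 CPM), Hlf (212 CPM), Procr (29.1 CPM) and Mecom (77.8 CPM) and the lowest for Il1rl1 (6.16 CPM) and Cox7c (60.9 CPM). The Jak2V617F library of pegIFN mouse 4 was the lowest for Fcnb (4.85 CPM). The Jak2V617F library of pegIFN mouse 5 was the highest for Cdkn1a (50.6 CPM) and Sesn2 (35.5 CPM). The WT library of pegIFN mouse 3 was the highest for Mmp8 (6.93 CPM). The WT library of pegIFN mouse 6 was the highest for Socs2 (48.4 CPM) and the lowest for Pdgfrb (9.63 CPM), Stat5a (192 CPM), Hk1 (550.5 CPM) and Tgfbr2 (52.4 CPM).

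The genotype difference itself differed between treatments, by the interaction test, for 41 of 147 named genes. It was also called for Cdk1 (-0.33), whose adjusted p rounds to 0.05 and which is not counted in the 41. None of these calls was made without the mouse terms. Over all autosomal genes the interaction was called for 3.38%. Some named genes were chosen for a small interaction p and others for a large log2 fold change under pegIFN. The share among named genes therefore depends in part on that choice and does not show enrichment. The log2 fold change under pegIFN minus that under vehicle was positive for Ccl6 (1.75), Cdkn1a (1.16), Socs3 (0.75), Csf3r (0.95), Mcl1 (0.23), Ccng1 (0.44), Btg2 (0.76), Meis1 (0.42), Tbxas1 (0.35), Itgam (0.90), Ier5 (0.30), Egr1 (0.54), Alox5ap (0.35), Egln3 (0.55), Sesn2 (0.60), Ccr1 (1.47) and Trp53inp1 (0.80).

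The same difference was negative for Il31ra (-2.40), Kif26b (-3.02), Trib2 (-1.81), Zg16 (-2.08), Scin (-2.52), Pdgfrb (-1.02), Plxdc1 (-1.98), Il1rl1 (-1.53), St8sia6 (-1.60), Slc45a3 (-1.79), Ifngr1 (-0.66), Ccna2 (-0.35), Ube2c (-0.63), Ccnb1 (-0.53), Myb (-0.45), Aqp1 (-0.87), Slc11a2 (-0.62), Trp53 (-0.23), Mki67 (-0.44), Isg15 (-0.40), Adamts3 (-0.92), Nek2 (-0.66), Cdc25b (-0.73) and Siglec5 (-1.45).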

How the results depend on the processing

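Without the mouse terms the fit called 1295 genes under pegIFN in place of 3749, 1954 under vehicle in place of 4777, and 0 for the interaction in place of 514. The other tools and settings called 3195 to 3886 genes under pegIFN and 4134 to 5058 under vehicle. For the interaction limma-voom called 271 (79 more positive and 192 more negative) and DESeq2 1009 (404 and 605), and the other scalings and filters 472 to 519. Leaving out 1 mouse at a time gave 2399 (without mouse 1) to 3858 (without mouse 6) calls under pegIFN, 3277 to 4407 under vehicle and 199 to 923 for the interaction. Among the calls for the interaction 37.9% were more positive, against 51.3% with upper-quartile scaling and 48.2% with a filter at 1 CPM in 12 libraries. Under vehicle 56.3% were higher, against 45.8% with upper-quartile scaling and 67.1% without the mouse terms. The 318 genes over 1 were 182 without the mouse terms and 171 with the filter at 1 CPM. Over the 147 named genes, 2082 of 2201 recomputed values stayed on the same side of the threshold, 115 lost the call and 4 gained one. None changed direction where the gene was called in either fit. Changes of direction between uncalled values were not counted. The fit without the mouse terms accounted for 53 of the lost calls. Causes were not tested. Counts limit precision for genes near 1 CPM, such as Blnk and Bmpr1a.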

Other observations

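Among the 25 autosomal genes with the smallest p under pegIFN were several outside the groups described above, chosen here after their values were seen. S1pr1, the sphingosine-1-phosphate receptor that guides blood cells out of tissues, was at 8.66 to 11.4 CPM (median 10.019) in Jak2V617F cells, against 15.7 to 20.1 CPM (median 16.9) in WT cells (log2 fold change -0.78 ± 0.07, adjusted p = 7.84e-06) and at -0.47 ± 0.07 under vehicle. Clec7a, which encodes the fungal receptor dectin-1, was at 5.79 to 26.8 CPM (median 8.69) in Jak2V617F cells, against 1.72 to 6.17 CPM (median 2.80) in WT cells (log2 fold change 1.69 ± 0.17, adjusted p = 1.06e-05), and Niacr1, a niacin receptor, at 0.826 to 4.94 CPM (median 1.40) in Jak2V617F cells, against 0.0664 to 0.514 CPM (median 0.211) in WT cells (log2 fold change 2.96 ± 0.29, adjusted p = 1.02e-05). Lipid and sugar enzymes were also there: the phosphatidate phosphatases Lpin1 and Lpin2 had log2 fold changes of -0.86 ± 0.09 and -0.53 ± 0.05, the glucosylceramide synthase Ugcg of -0.86 ± 0.08, and the hexokinase Hk3 of 1.19 ± 0.11. Trim56, an antiviral ubiquitin ligase, was at -0.49 ± 0.05 under pegIFN and -0.32 ± 0.05 under vehicle. Tmem9, at 0.68 ± 0.06 under pegIFN and 0.41 ± 0.06 under vehicle, lies near Ptprc on chromosome 1, and Dynlt1b, at 0.82 ± 0.07 and 0.61 ± 0.07, has near-identical copies among which reads may have been divided.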
